A study of Mus musculus with 62 samples.

Results

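Polyadenylated RNA of the neocortex was compared between mice 4 weeks and mice 2 weeks after injection of non-cachectic melanoma cells (NCAC). The 4-week group holds 4 libraries and the 2-week group 5, all sequenced on lane 3, out of 62 libraries in the series. They were taken by the group and lane in the sample labels, and replicate 5 of NCAC at 4 weeks, sequenced on lane 4, was kept out of the comparison and is given beside it. The mice were female and 2 months old when injected. The host is uncertain, because the design text gives NCI Ath/nude mice and the sample labels give the strain C57BL6/J. Groups set beside the NCAC mice were mice with cachectic melanoma cells (CAC) at 4 and 2 weeks, 5 libraries each on lane 3, and mock-injected mice at 4 weeks (5 libraries, lane 4) and 2 weeks (5 libraries, lane 3). Neither the design text nor the group labels give the line, clone or dose of the cells, or the site of injection. The labels' protocol speaks of LLC cells and a time of 3 weeks, which match no group here, so how far it describes these libraries is uncertain. Per the labels the libraries are biological replicates. The p-values and intervals rest on the spread between libraries within groups, pooled over the 12 groups (61 libraries) of the fit. The step of the lowest values gave an estimated depth of 47.8 to 49.6 M reads in the 4-week and 46.5 to 50.6 M reads in the 2-week libraries. A transcript of 2000 bases at 1 TPM (transcript abundance, scaled to sum to 1000000 in each library) then stands for about 28.7 reads.

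In cachexia, which some tumours bring about, muscle and adipose tissue are lost. The brain of a tumour-bearing animal can be reached by circulating cytokines and by glucocorticoids from the adrenal gland. Cytokines act on vessels and astrocytes, where genes such as Lcn2 and Lrg1 respond, and glucocorticoids enter cells and induce genes such as Fkbp5 and Tsc22d3 through their receptor. Cells of the cortex also keep time: a core clock of activators (Clock, Arntl) and repressors (Per, Cry) drives output factors such as Dbp and Tef. In the young adult cortex oligodendrocyte precursors still mature through a short committed stage marked by Gpr17 before they make myelin. The comparison asks which of these systems, if any, differed in the neocortex between the early weeks of a tumour that does not cause wasting.

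No gene met the threshold. Among 14494 genes averaging 1 TPM or more, 0 (0%) had an adjusted p under 0.05 between NCAC mice at 4 and at 2 weeks (limma, Benjamini-Hochberg), and the adjusted p was 1 for every gene. An unadjusted p under 0.05 was reached by 248 genes (1.71%), of which 80 were higher and 168 lower at 4 weeks. All 4 libraries of 4 weeks lay above all 5 of 2 weeks for 47 genes (0.324%), and below them for 95 genes (0.655%). Libraries of different weeks were about as alike as libraries of a single week. Pearson's r across genes was 0.9888 to 0.9926 (median 0.9908) in the 20 pairs of a 4-week with a 2-week library, 0.9890 to 0.9931 (median 0.9908) in the 6 pairs within 4 weeks, and 0.9878 to 0.9914 (median 0.9895) in the 10 pairs within 2 weeks. These are correlations across genes, which are not independent replicates.

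The intervals show how large a difference the libraries could still hold. The 95% interval of the difference, on the log2(TPM + 1) scale used for all differences here, had a median half-width of 0.186. It lay within 1.2-fold in either direction for 8395 genes (57.9%), within 1.5-fold for 13639 genes (94.1%) and within 2-fold for 14279 genes (98.5%). Of 9442 genes averaging 10 TPM or more, 97.5% had an interval within 1.5-fold. Adding 1 to each TPM draws the differences of genes near or below 1 TPM towards 0, so their intervals are narrower than those of TPM ratios would be. The spread within the groups was low, with a median SD per gene of 0.093 at 4 weeks and 0.118 at 2 weeks, against 0.0948 to 0.177 in the other 10 groups. The median absolute difference between the weeks was 0.0481 in NCAC mice, 0.0617 in CAC mice and 0.107 in mock mice. In mock mice week and lane cannot be told apart, and 770 genes (5.31%) met the threshold between the 2 groups, so mock values are given only as a description.

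**Figure D1:**
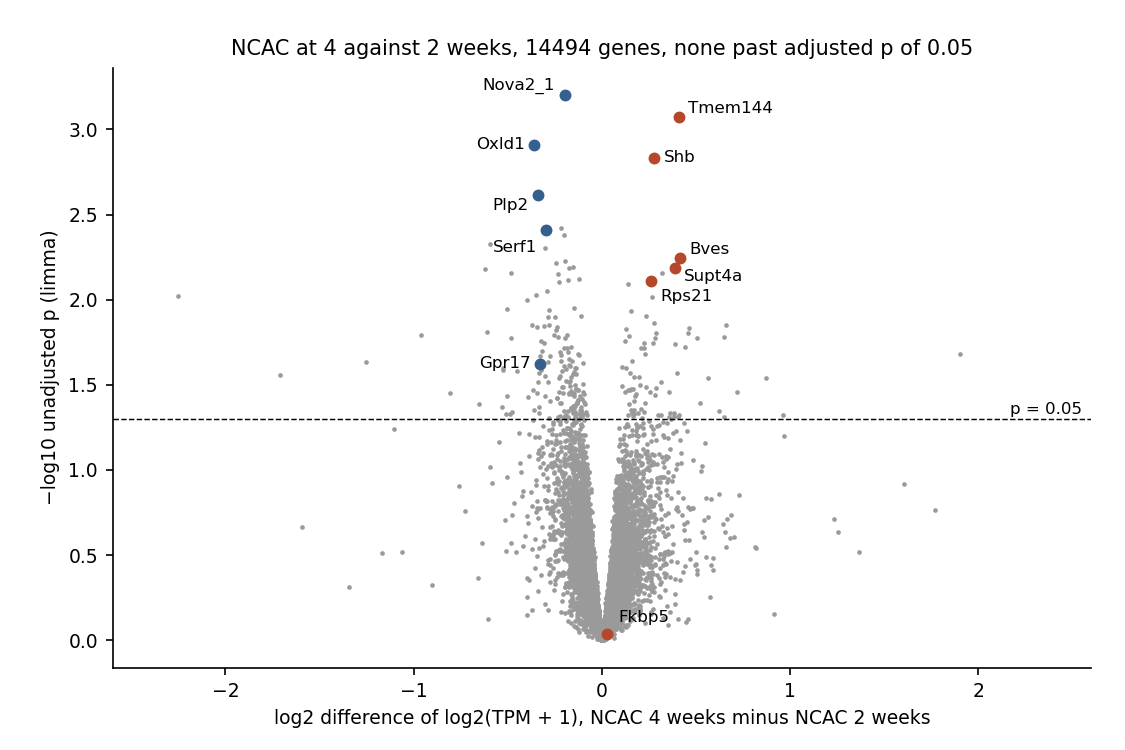
Difference between NCAC mice at 4 weeks (4 libraries) and 2 weeks (5 libraries) on the log2(TPM + 1) scale against the unadjusted p of limma on a −log10 scale, for 14494 genes. Named points are genes described in the text, red where higher and blue where lower at 4 weeks. None reached an adjusted p under 0.05, and Fkbp5 sits at a difference of 0.03.

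Among the genes with the lowest p of those higher at 4 weeks were Tmem144, Shb, Bves, Supt4a, Arhgef15, Rps21 and Rps12, given as values since none met the threshold. Tmem144 (chr3:79812564-79852773, minus strand, build mm10), a membrane protein gene, had 10.4, 10.8, 12 and 11.3 TPM at 4 weeks, against 9.90, 7.37, 8.98, 7.48 and 7.16 TPM at 2 weeks. The difference was 0.41 (95% interval 0.18 to 0.64, unadjusted p = 0.000847, adjusted p = 1 in limma), and the groups did not overlap. The lane 4 library of 4 weeks had 9.87 TPM, just below the highest library of 2 weeks. Bves (chr10:45335772-45372479, plus strand) encodes a cAMP-binding membrane protein of the Popeye family. It had 2.21, 1.52, 1.78 and 2.28 TPM at 4 weeks, against 1.32, 1.09, 0.874, 1.49 and 1.27 TPM at 2 weeks, a difference of 0.42 (0.13 to 0.70). The 4 libraries again lay above the 5, and the lane 4 library had 1.82 TPM. Shb, which encodes an SH2-domain adaptor of receptor signalling, had 7.28, 9.0, 8.62 and 7.86 TPM at 4 weeks, against 5.48, 7.41, 6.45, 7.27 and 6.32 TPM at 2 weeks. Its groups overlapped narrowly, and the lane 4 library, at 6.51 TPM, lay within the 2-week range.

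A transcription elongation factor, an exchange factor for RhoA and ribosomal proteins made up the rest of these genes. Supt4a, a subunit of the elongation factor DSIF, averaged 102 ± 15.6 TPM at 4 weeks and 79.99 ± 24.9 TPM at 2 weeks (SD, n = 4 and 5), with groups that overlapped. Arhgef15, an exchange factor for RhoA found in endothelium and neurons, differed by 0.32 (0.09 to 0.55). Rps21, a protein of the small ribosomal subunit, had 623, 702, 638 and 663 TPM at 4 weeks, against 484, 594, 612, 526 and 533 TPM at 2 weeks, without overlap. Rps12, of the same subunit, differed by 0.27 (0.07 to 0.47) and its groups overlapped. Ribosomal protein genes have many near-identical processed copies in the genome, so their reads may have been split and their values are uncertain.

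Among genes lower at 4 weeks the lowest p belonged to Nova2_1, Oxld1, Plp2, Fahd2a, Serf1, Flot1, Chrm3 and Ak6. Nova2_1 is a symbol with a suffix that the annotation does not hold, so its place in the genome is not given. It had 31.8, 33.9, 34.6 and 32.3 TPM at 4 weeks, against 40.2, 37.3, 37.4, 38.8 and 37.1 TPM at 2 weeks, a difference of -0.20 (-0.31 to -0.09, unadjusted p = 0.000626, adjusted p = 1 in limma). The groups were apart, but the lane 4 library of 4 weeks had 38.2 TPM, within the 2-week range. Oxld1 (chr11:120456606-120458068, minus strand) had 11.6, 10.9, 12.8 and 9.62 TPM at 4 weeks, against 13.2, 14.9, 14.1, 15.9 and 15.2 TPM at 2 weeks, and the lane 4 library had 15.1 TPM. Flot1 encodes flotillin 1, a scaffold of membrane rafts. It had 77.4, 75.1, 74.6 and 69.8 TPM at 4 weeks, against 83.6, 99.7, 80.8, 83.5 and 81.7 TPM at 2 weeks, and the lane 4 library had 98.6 TPM. For these 3 genes the libraries of lane 3 did not overlap, whereas replicate 5 of 4 weeks was like the mice of 2 weeks; its lane and the mouse itself cannot be told apart. Fahd2a, a hydrolase-family gene, showed the same pattern, with 29.5 to 31.4 TPM at 4 weeks, 32.0 to 39.5 TPM at 2 weeks and 33.9 TPM in the lane 4 library.

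Plp2 and Serf1 were low in all 5 mice of 4 weeks. Plp2 (chrX:7667941-7671390, minus strand), a membrane protein gene that overlaps Prickle3 on the opposite strand, had 8.65, 9.41, 9.98 and 9.45 TPM at 4 weeks, against 10.6, 13.5, 11.6, 13.3 and 11.8 TPM at 2 weeks. The difference was -0.34 (-0.56 to -0.13), and the lane 4 library had 8.62 TPM. Serf1 (chr13:100108012-100114571, plus strand) had 12.2, 9.76, 11.3 and 10.4 TPM at 4 weeks, against 13.6, 15.7, 13.1, 12.3 and 13.4 TPM at 2 weeks, and the lane 4 library had 12 TPM. Chrm3, the M3 muscarinic acetylcholine receptor, differed by -0.30 (-0.51 to -0.10), and Ak6, a nuclear adenylate kinase whose gene overlaps Taf9 on the same strand, by -0.20 (-0.33 to -0.06), both with overlapping groups. No source used here says whether counting used strand, so reads of overlapping genes cannot be told apart.

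**Figure D2:**
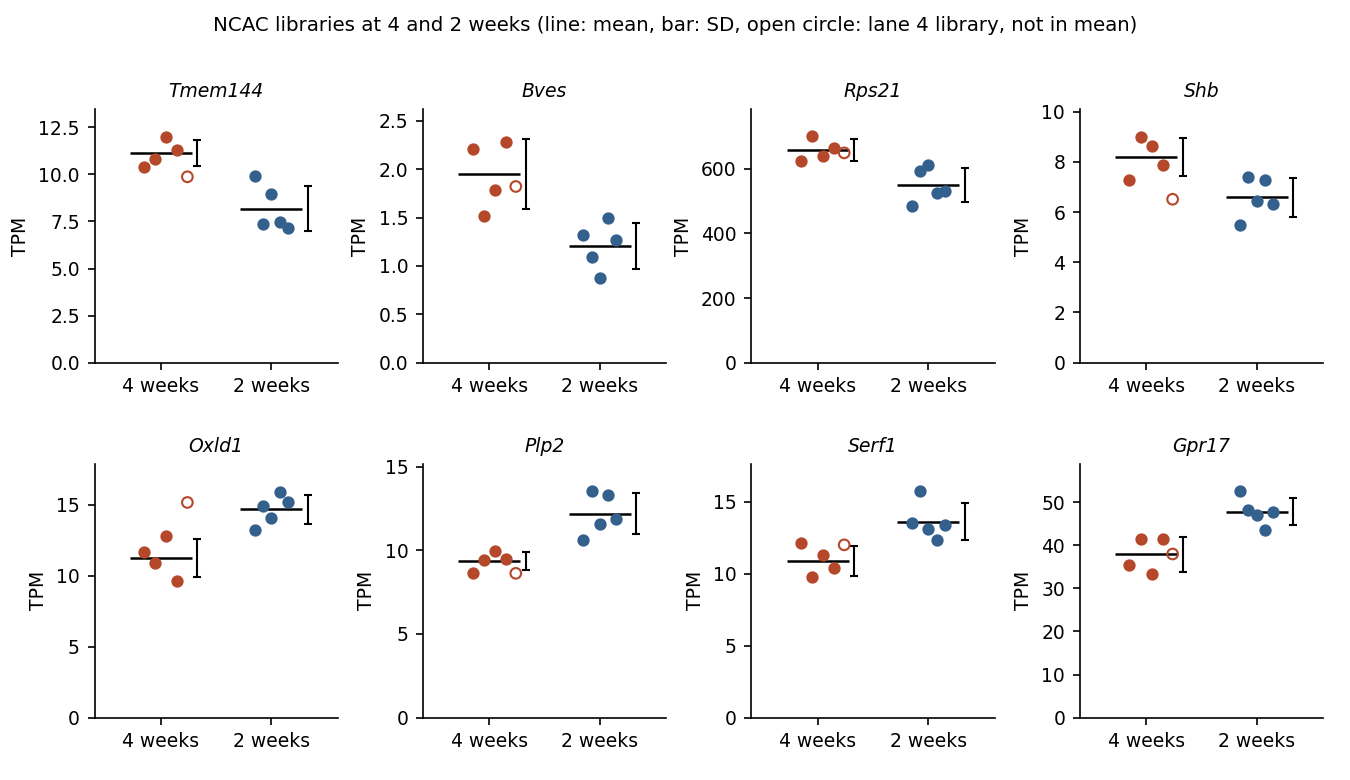
TPM of 8 genes in the NCAC libraries of 4 weeks (left, red) and 2 weeks (right, blue), from 0 upwards, with the mean as a line and the SD as a bar. The open circle is the 4-week library of lane 4, which is not in the mean: it lies with the 2-week libraries for Oxld1 and Shb and with the 4-week libraries for Bves, Rps21, Plp2 and Gpr17.

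Differences over 1.5-fold were seen in 49 genes (28 higher, 21 lower at 4 weeks), of which 24 are clones, gene models or pseudogenes. Of the 49, 17 had an unadjusted p under 0.05 and 4 had groups that did not overlap. Of the 4, Gchfr and Gkn3 are described here, chosen after their values were seen. Gchfr, a regulator of tetrahydrobiopterin synthesis, had 3.34, 2.81, 3.20 and 2.36 TPM at 4 weeks, against 1.21, 1.77, 1.41, 1.01 and 2.10 TPM at 2 weeks. Its lane 4 library had 1.48 TPM, within the 2-week range. Gkn3, which marks arterial endothelium in mouse brain, had 8.61, 8.15, 3.66 and 8.17 TPM at 4 weeks, against 8.68, 9.75, 11.5, 16.6 and 9.11 TPM at 2 weeks. The gap between its groups was 8.61 to 8.68 TPM, and the difference of -0.60 had an interval of -1.30 to 0.11.

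The libraries carried the markers of cortex, with excitatory neuron markers at a mean of 6.42 to 6.63 at 4 weeks and 6.45 to 6.78 at 2 weeks on a log2(TPM + 0.1) scale, and some held higher levels of markers of neighbouring regions. Some of the larger differences came from a single library. Replicate 1 of 4 weeks had 101 TPM of Pmch, 97.4 TPM of Oxt, 173 TPM of Avp and 26.1 TPM of Hcrt, which encode hypothalamic peptides, whereas the other 8 libraries held 0.679 to 4.44 TPM of Pmch and 0.915 to 7.81 TPM of Oxt. Its mean level of hypothalamus and pituitary markers was the highest of the 9 libraries, at 3.13 on a log2(TPM + 0.1) scale, against -0.32 to 0.38 in the other 4-week libraries and -0.67 to 0.16 at 2 weeks. Thalamus markers stood apart in the same library (3.90, against 2.73 to 3.04 in the other 8). The median difference of the hypothalamus list was 0.70 with this library and 0.24 without it, and that of the thalamus list 0.23 and 0.01. Olfactory bulb markers were highest in replicate 3 of 4 weeks (3.98) and replicate 4 of 2 weeks (3.33), with 2.01 to 2.99 in the other 7 libraries. Marker levels in bulk tissue cannot tell fewer cells of a type from less RNA per cell, and the part of dissection in these values was not tested.

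Members of the gene lists named from here on are, unless said otherwise, those with the lowest p of each list or familiar genes chosen after their values were seen (Fkbp5, Sgk1, Sult1a1, Plin4, Lcn2, Lrg1, Mbp, Pdgfra, P2ry12, Cldn5, Hmgcs1, Grin1 and Fos among them). Glucocorticoid-responsive genes gave no call (0 of 19) and their median difference was -0.03, beside a median of -0.00898 over all genes tested. Fkbp5, which encodes a co-chaperone of the glucocorticoid receptor and is induced by it, had 20.2, 25.0, 13.3 and 23.1 TPM at 4 weeks, against 21.1, 26, 15.1, 17.1 and 19.7 TPM at 2 weeks. The 2 ranges were nearly the same, and the difference was 0.03 with an interval of -0.50 to 0.56. Tsc22d3 (the mediator GILZ) had 51.9, 71.6, 32.7 and 66.0 TPM at 4 weeks, against 60.9, 68.0, 49.8, 49.4 and 63.1 TPM at 2 weeks. Sgk1, a kinase induced by steroids, differed by -0.03 (-0.57 to 0.51) and the sulfotransferase gene Sult1a1 by -0.06 (-0.79 to 0.67). Individual mice differed more than the weeks did: replicate 3 of 4 weeks had the lowest level of Fkbp5, Tsc22d3, Sult1a1 (8.04 TPM) and Plin4 (0.795 TPM, a lipid droplet coat protein gene) of the 9. The lane 4 library of 4 weeks was as low, with 14.4 TPM of Fkbp5, 28.7 TPM of Tsc22d3, 8.62 TPM of Sult1a1 and 0.848 TPM of Plin4. Without replicate 3 the median difference of the list was 0.09, and without replicates 1 and 3 of 4 weeks and replicate 4 of 2 weeks it was 0.24.

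Core clock genes likewise gave no call (0 of 15). Of these, 11 were lower and 4 higher at 4 weeks, with a median of -0.03. The repressor gene Per2 had 23.5, 32.4, 9.71 and 26.6 TPM at 4 weeks, against 37.3, 25.5, 26.2, 25.9 and 27.4 TPM at 2 weeks. Its difference of -0.40 (-0.99 to 0.20) became -0.05 without replicate 3 of 4 weeks, the lowest of the 9 libraries, and the lane 4 library had 11.4 TPM. Ciart, another repressor, differed by -0.31 (-0.85 to 0.24) and Arntl, an activator, by 0.07 (-0.14 to 0.29). Of 7 output genes 6 were lower, with a median of -0.11. Among them Dbp had 180, 181, 149 and 206 TPM at 4 weeks, against 168, 188, 213, 218 and 209 TPM at 2 weeks. No source used here gives the hour at which tissue was taken.

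The change between the weeks was also set against that of CAC mice, which asks whether a tumour that causes wasting moved the cortex differently over the same interval. No gene met the threshold for a difference of changes (0 of 14494, 0%, lowest adjusted p = 0.25 in limma), and 315 (2.17%) had an unadjusted p under 0.05. In CAC mice alone 2 genes (0.0138%) met the threshold between the weeks, Zfp459, a zinc finger gene, and Sord, which encodes sorbitol dehydrogenase. Both rose in CAC mice, by 0.93 and 0.44 (adjusted p = 0.027 each in limma). In NCAC mice Zfp459 had 1.15, 1.49, 0.902 and 0.980 TPM at 4 weeks, against 3.07, 1.62, 1.27, 1.40 and 1.00 TPM at 2 weeks. The difference of changes was -1.22 (-1.74 to -0.70). Sord had 27.4, 27.7, 25.2 and 27.4 TPM at 4 weeks in NCAC mice, against 23.9, 24.8, 27.7, 27.4 and 29.7 TPM at 2 weeks, a difference of 0.01 (-0.17 to 0.20). For Sord the difference of changes was -0.43 (-0.68 to -0.18), and neither gene passed adjustment in this contrast. Both genes were picked by their CAC change, which is a part of this difference, so their intervals are no separate evidence.

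Other genes with the lowest p in this difference were Rnf180, Bves, Polr2i and Xkr7, higher in the NCAC change, and Plp2 and BC029214, lower in it. Rnf180, a ubiquitin ligase gene, differed by 0.05 between the weeks in NCAC mice and by -0.29 in CAC mice, and Bves by 0.42 and -0.20. Polr2i, a subunit of RNA polymerase II that overlaps Tbcb on the opposite strand, differed by 0.12 and -0.16, and Xkr7 by 0.21 and -0.40. Plp2 differed by -0.34 in NCAC and 0.16 in CAC mice, and BC029214 by -0.14 and 0.22.

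Glucocorticoid-responsive and clock genes had medians slightly below 0 in NCAC mice and above 0 in CAC mice. In mock mice, where week and lane cannot be told apart, the medians were above 0 as well. They were 0.24 for glucocorticoid-responsive, 0.05 for core clock and 0.19 for clock output genes. The median difference of the 19 glucocorticoid-responsive genes was -0.03 in NCAC and 0.40 in CAC mice, and the median of the differences of changes was -0.39. The NCAC median was 0.04 without replicate 1 and 0.09 without replicate 3 of 4 weeks, and 0.06 without replicate 2 of 2 weeks. It was -0.09 without replicate 2 or replicate 4 of 4 weeks, and -0.16 with the lane 4 library, so its sign is not settled. The median of the 15 core clock genes was -0.03 in NCAC and 0.11 in CAC mice, and that of the 7 output genes -0.11 and 0.17. With the lane 4 library included, the NCAC medians of these lists were -0.15 and -0.17. Of the 15 core clock genes, 6 had an unadjusted p under 0.05 in limma for the difference of changes. Of the 7 output genes 3 did (the factors Dbp and Tef, and Tspan4), and of all genes 2.17%. The 6 were Per3, Cry1, Cry2, Ciart, Bhlhe41 and Arntl. The first 5 were lower at 4 weeks in NCAC mice (-0.09 to -0.31) and higher in CAC mice (0.11 to 0.56), while Arntl, which peaks opposite to the repressors, differed by 0.07 and -0.23. None met the threshold, so no difference between the tumour groups is shown for a single clock gene. Clock genes are linked and were measured in the same 19 libraries, so these counts are not independent results and do not test the lists. The summary level of core clock genes was 4.83 in replicate 3 of NCAC at 4 weeks, on the log2(TPM + 0.1) scale. In replicates 1, 2 and 4 it was 5.02, 5.17 and 5.09. How far replicate 3 bears on these counts was not tested. In CAC mice at 4 weeks Fkbp5 averaged 27.3 ± 15.1 TPM, and at 2 weeks 15.04 ± 3.53 TPM (SD, n = 5 each). The 5 CAC libraries of 4 weeks ranged from 14.9 to 51.1 TPM. The count of genes whose changes differed at an unadjusted p under 0.05 was 963 without replicate 5 of CAC at 4 weeks, still with 0 genes called.

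**Figure D3:**
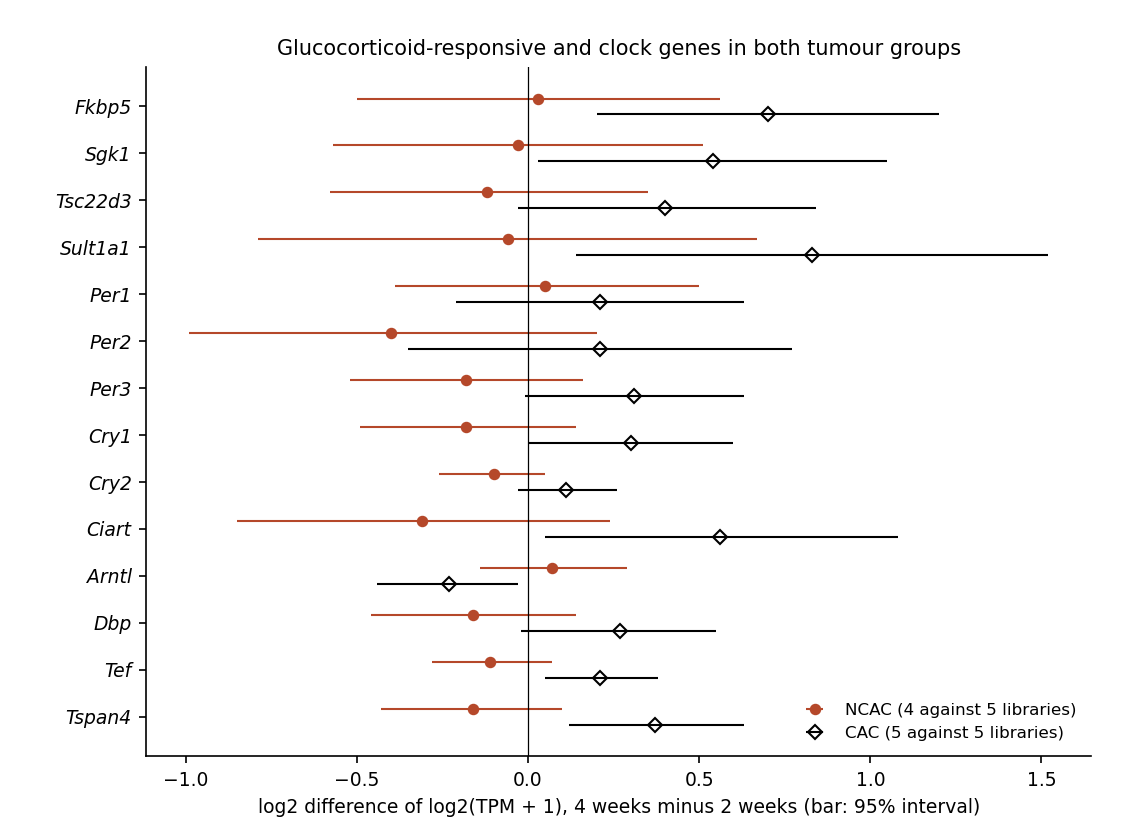
Difference between 4 and 2 weeks with its 95% interval for 4 glucocorticoid-responsive genes (Fkbp5, Sgk1, Tsc22d3, Sult1a1) and 10 clock genes, on the log2(TPM + 1) scale, in NCAC mice (filled circles, 4 against 5 libraries) and CAC mice (open diamonds, 5 against 5). All NCAC intervals hold 0. The estimates of the 2 groups lie on opposite sides of 0 for most of these genes, with intervals that overlap for Fkbp5 (-0.50 to 0.56 in NCAC, 0.20 to 1.2 in CAC).

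Averaged over both tumour groups, which share no mouse, the change between the weeks again gave 0 calls, with 551 genes (3.80%) at an unadjusted p under 0.05 and a lowest adjusted p of 0.19 in limma. This average was added after the values were seen. Across genes the 2 changes correlated weakly (Pearson's r = 0.0567, Spearman's rho = 0.0899 over 14494 genes), which is a description across genes within these libraries.

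Genes of the oligodendrocyte lineage gave no call, and Gpr17 was the one of the 32 tested members of the precursor, newly formed and myelin lists whose libraries of the 2 weeks did not overlap. Over all genes tested the libraries lay apart in this direction for 0.655%. Gpr17, the receptor that marks the committed stage before myelination, had 35.5, 41.4, 33.5 and 41.4 TPM at 4 weeks, against 52.6, 48.1, 47.1, 43.7 and 47.7 TPM at 2 weeks. All 4 libraries lay below all 5, and the difference was -0.33 (-0.61 to -0.05, unadjusted p = 0.0238, adjusted p = 1 in limma). The lane 4 library of 4 weeks had 38.0 TPM. The level at later weeks, on lane 4, was 31.0 ± 3.70 TPM at 6 weeks and 30.9 ± 5.08 TPM at 8 weeks (SD, n = 5 each). The mean of Gpr17 was also lower at 4 weeks in the other groups, with 33.3 ± 8.52 TPM in CAC mice at 4 weeks and 43.7 ± 6.89 TPM at 2 weeks, and 35.1 ± 4.64 TPM in mock mice at 4 weeks and 47.3 ± 5.99 TPM at 2 weeks, a log2 difference of -0.40 and -0.42. The difference of the NCAC and CAC changes was 0.07 (-0.32 to 0.46). Averaged over NCAC and CAC mice the log2 difference was -0.36 (-0.56 to -0.17, unadjusted p = 0.000466, adjusted p = 0.603 in limma).

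Of the 8 other tested genes of that stage 5 were higher and 3 lower, with 0 called. Bmp4, a growth factor of committed precursors, differed by -0.23 (-0.49 to 0.03), and Enpp6, a choline phosphodiesterase of cells that begin to myelinate, by -0.23 (-0.53 to 0.08). Bcas1, found in cells that form early myelin and kept in myelin, had 114, 104, 108 and 157 TPM at 4 weeks, against 84.5, 85.2, 126, 93.97 and 105 TPM at 2 weeks. Its difference of 0.28 (0.02 to 0.54) was 0.15 without replicate 4 of 4 weeks, which was also highest in myelin genes. Precursor markers had 0 of 10 called, all with intervals within 1.5-fold; Pdgfra, the growth factor receptor of precursors, had 21.4 to 25.6 TPM at 4 weeks and 18.8 to 25.1 TPM at 2 weeks. Myelin genes had 0 of 13 called and all 13 intervals lay within 1.5-fold. Mbp, myelin basic protein, had 858, 794, 807 and 1120 TPM at 4 weeks, against 732, 754, 1043, 899 and 857 TPM at 2 weeks, and Mobp had 302 to 509 TPM at 4 weeks and 296 to 404 TPM at 2 weeks.

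**Figure D4:**
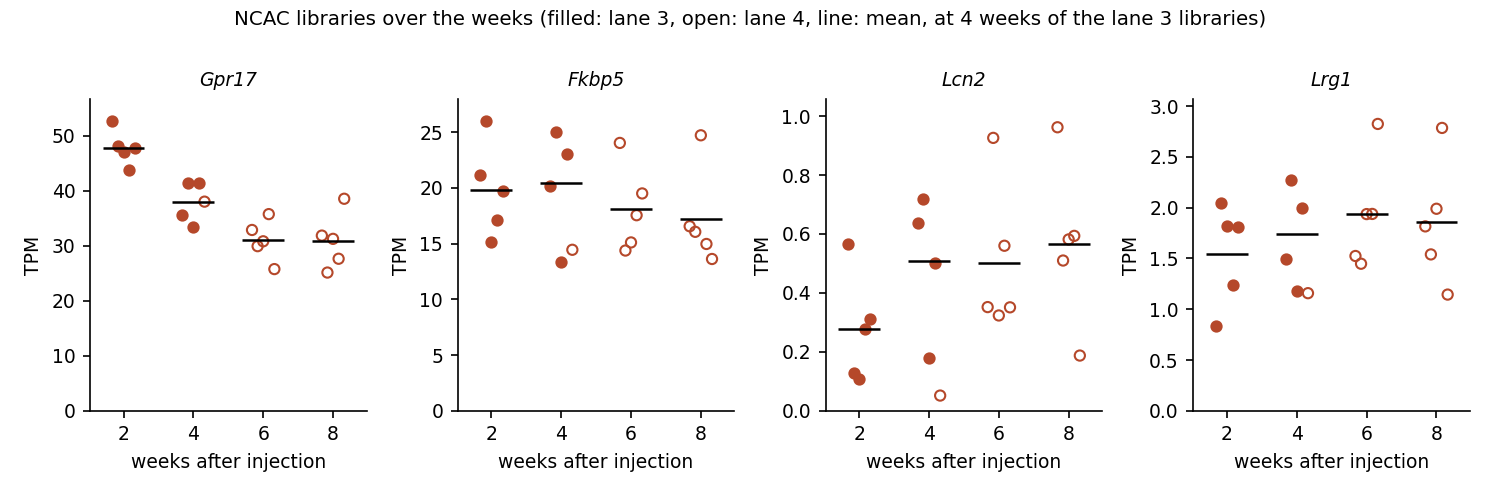
TPM of Gpr17, Fkbp5, Lcn2 and Lrg1 in each NCAC library at 2, 4, 6 and 8 weeks after injection (filled: lane 3, open: lane 4), with the mean of each week as a line, at 4 weeks over the 4 libraries of lane 3. Gpr17 averaged 47.8 TPM at 2 weeks, 37.9 at 4, 31.0 at 6 and 30.9 at 8 weeks. Between 2 and 4 weeks its lane 3 libraries did not overlap, while those of the other 3 genes did. From 4 to 6 weeks the lane changed with the week.

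Inflammatory genes were low and gave no call in the cytokine and acute inflammatory list (0 of 13 tested). Lcn2, an iron-siderophore carrier of the acute phase response, had 0.636, 0.718, 0.178 and 0.502 TPM at 4 weeks, against 0.566, 0.128, 0.107, 0.277 and 0.310 TPM at 2 weeks, and 0.0519 TPM in the lane 4 library. At these levels a library holds a few reads of Lcn2. It was tested because the average of 1 TPM was taken over all 62 libraries. The difference of 0.24 had an interval of -0.24 to 0.71, and adding 1 to each TPM shrinks log2 differences at such levels. Lrg1, a glycoprotein of activated endothelium, had 1.49, 2.27, 1.18 and 2.00 TPM at 4 weeks, against 0.838, 2.04, 1.82, 1.24 and 1.81 TPM at 2 weeks, a difference of 0.11 (-0.51 to 0.73). Of the transcription factors of this response, Cebpb differed by 0.22 (-0.12 to 0.56) and Cebpd by -0.04 (-0.63 to 0.55). Interferon-induced genes were split, with 9 of 18 higher and 9 lower. Among them Rsad2, an antiviral enzyme gene, differed by 0.26 (-0.13 to 0.65) and Ifit3 by -0.24 (-0.73 to 0.25). Genes of class I presentation had 0 of 9 called and 0 of 18 interferon-induced genes were called.

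Markers of glial and vascular cells held no called gene. Microglia markers were higher in 13 of 15, with a median of 0.06 and a largest difference of 0.21 (Ctss, a lysosomal protease, 134 to 153 TPM at 4 weeks and 108 to 136 TPM at 2 weeks). P2ry12, the receptor of resting microglia, had 53.7 to 62.7 TPM at 4 weeks and 47.4 to 62.5 TPM at 2 weeks. Astrocyte markers were higher in 11 of 12, with a median of 0.04, and Gfap, the astrocyte filament protein, had 120, 165, 113 and 130 TPM at 4 weeks, against 107, 97.8, 108, 132 and 117 TPM at 2 weeks. Endothelial markers were split 7 and 7, and all 14 intervals lay within 1.5-fold, among them that of the tight junction gene Cldn5 (45.4 to 64.5 TPM at 4 weeks and 42.9 to 60.7 TPM at 2 weeks). All 20 cholesterol synthesis genes had intervals within 1.5-fold as well; Hmgcs1, an early enzyme of the pathway, had 220 to 251 TPM at 4 weeks and 215 to 268 TPM at 2 weeks.

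Neuronal and synaptic genes were mostly a little lower at 4 weeks. Of 12 excitatory cortical neuron markers 11 were lower, with a median of -0.15, and of 18 synaptic genes 16 were lower, with a median of -0.09; 0 of either were called. Slc17a7, the vesicular glutamate transporter of cortical excitatory neurons, had 953, 1001, 984 and 896 TPM at 4 weeks, against 1181, 1079, 1140, 912 and 1155 TPM at 2 weeks. Replicate 4 of 2 weeks was as low as the 4-week libraries, and the lane 4 library of 4 weeks, at 1164 TPM, as high as the others of 2 weeks. Vamp2, a vesicle SNARE, differed by -0.10 (-0.18 to -0.01) and Syn1, synapsin I, by -0.14 (-0.26 to -0.02), with overlapping groups in both. Grin1, the obligate subunit of NMDA receptors, had 130 to 138 TPM at 4 weeks and 138 to 149 TPM at 2 weeks without overlap. It had 150 TPM in the lane 4 library, and its difference was -0.10 (-0.21 to 0.02). All 4 libraries lay below all 5 for 1 of the 18 synaptic genes, and for 0.655% of all genes tested. Striatum markers had higher estimates at 4 weeks for all 11 members, with a median of 0.26, 0 called and 0 without overlap. Their summary levels overlapped, at 6.52 to 7.09 at 4 weeks and 6.06 to 7.09 at 2 weeks. The median was 0.13 without replicate 3 of 2 weeks and 0.17 without replicate 4 of 4 weeks, and 0.38 without replicate 4 of 2 weeks. With the levels of striatum, thalamus, olfactory, hypothalamus, choroid plexus and erythroid markers as terms, the median of the excitatory list was -0.06 and that of the synaptic list -0.05. Whether neighbouring tissue took part in the lower neuronal values was not tested. Interneuron markers were split (7 higher, 5 lower), with Gad1, which makes GABA, at 0.14 (-0.05 to 0.32) and the peptide gene Vip at -0.32 (-0.69 to 0.04).

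Genes that follow neuronal activity were too variable between mice to place closely. Of 20 immediate early genes 17 were higher at 4 weeks with a median of 0.09, and the intervals of 5 lay within 1.5-fold. Fos had 16.6, 49.8, 39.3 and 40.5 TPM at 4 weeks, against 20.5, 44.9, 46.1, 29.1 and 22.4 TPM at 2 weeks, and 6.28 TPM in the lane 4 library. The median of the list ranged from -0.04 to 0.29 when single libraries were left out. Npas4 differed by 0.19 (-0.50 to 0.88), and the late gene Scg2, secretogranin II, by 0.16 (-0.12 to 0.44).

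Ribosomal, respiratory and stress genes held no called gene. All 34 genes of the list of cytosolic ribosomal proteins, which leaves out Rps12, Rps21 and Rps26 among others, had intervals within 1.5-fold, with 29 higher and a median of 0.04. Rpl27 had the most negative difference, -0.22 (-0.47 to 0.04). All 22 nuclear respiratory chain genes (20 higher, median 0.04) and all 13 mitochondrially encoded genes (10 higher, median 0.05) lay within the same bound. Atp5e, a subunit of ATP synthase, differed by 0.18, and mt-Cytb of complex III by 0.11 (-0.03 to 0.25). Of 14 genes of ER stress and the integrated stress response 13 were lower with a median of -0.11; Sesn2, a stress-induced inhibitor of growth signalling, differed by -0.39 (-0.80 to 0.02) and Chac1, which degrades glutathione, by -0.18 (-0.42 to 0.05). FOXO, atrophy and autophagy genes, which rise in wasting muscle, had 0 of 15 called, and all 15 intervals lay within 1.5-fold. Thyroid hormone targets had 0 of 12 called, with a median of -0.03.

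Blood and tumour cell genes were checked in the same libraries. Of 9 pigment cell genes 2 averaged 1 TPM or more, Mitf with 3.93 to 5.04 TPM at 4 weeks and 3.77 to 4.30 TPM at 2 weeks, and Sox10, which oligodendrocytes also express, with 33.4 to 42.7 TPM at 4 weeks and 33.7 to 43 TPM at 2 weeks. Of the others Mlana was at 0 in all 4 libraries of 4 weeks and at most 0.227 TPM at 2 weeks, Tyr was at most 0.0489 TPM at 4 weeks and 0.0379 TPM at 2 weeks, and Pmel had 0.490 to 1.01 TPM at 4 weeks and 0.537 to 1.62 TPM at 2 weeks. The summary level of the list was 0.86 to 1.03 at 4 weeks and 0.72 to 1.15 at 2 weeks on the log2(TPM + 0.1) scale. Of 8 T lymphocyte genes Cd3d and Cd3g were listed at 0 in all 9 libraries. Cd4, which microglia can also express, had 10.9 to 17.1 TPM at 4 weeks and 7.66 to 15.4 TPM at 2 weeks, and Lck had 1.28 to 1.5 TPM at 4 weeks and 0.982 to 1.45 TPM at 2 weeks. Haemoglobin genes were higher at 4 weeks without a call: Hbb-bs had 564, 922, 613 and 973 TPM at 4 weeks, against 535, 373, 342, 639 and 498 TPM at 2 weeks, a difference of 0.68 (-0.50 to 1.86). Hba-a1 differed by 0.58 (-0.69 to 1.85), and shares reads with its near-identical copy Hba-a2. Of 8 neutrophil markers 2 averaged 1 TPM or more, S100a9 and S100a8. The summary level of the list overlapped, at -0.43 to 1.18 at 4 weeks and -0.69 to 0.28 at 2 weeks on the log2(TPM + 0.1) scale. S100a9 had 8.53, 3.87, 3.44 and 5.84 TPM at 4 weeks, against 1.76, 1.29, 5.78, 1.67 and 1.69 TPM at 2 weeks. S100a8 had 2.11 to 5.41 TPM at 4 weeks and 0.873 to 2.34 TPM at 2 weeks. Replicate 1 of 4 weeks was the highest for both genes. The lane 4 library of 4 weeks had 1.43 TPM of S100a9, within the 2-week range. How far blood in the tissue took part in these values was not tested.

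**Figure D5:**
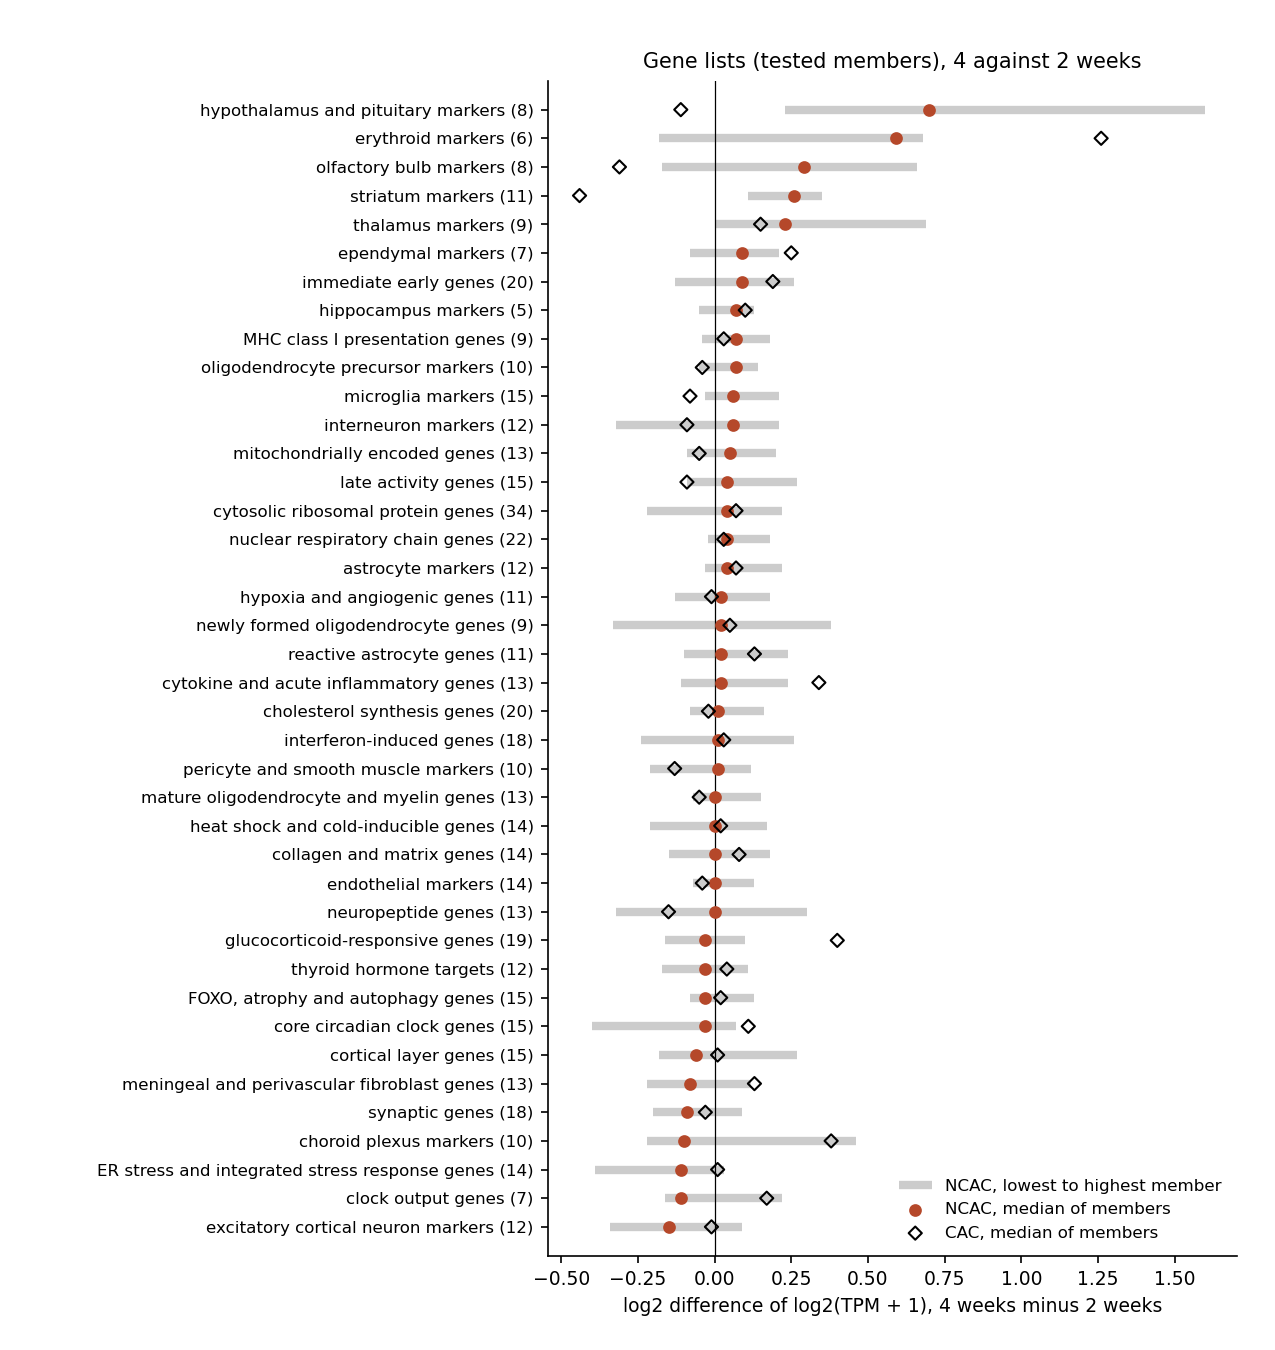
Median difference between 4 and 2 weeks of the tested members of each gene list with at least 5, on the log2(TPM + 1) scale, in NCAC mice (red circles) and CAC mice (open diamonds), with the number tested in brackets. Grey bars span the lowest to the highest member in NCAC mice. Apart from markers of neighbouring tissue and blood, the NCAC medians lie between -0.15 and 0.09.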

How the data were processed

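The authors deposited 1 table of 47643 genes with a TPM value per library, and 22257 genes are at 0 in every library. Libraries were made with a stranded mRNA kit and sequenced on an Illumina NovaSeq instrument, per the labels' protocols, and mm10 is the genome build in the submitters' processing notes. The sources used here do not name an aligner, a quantifier or an annotation. Genes averaging 1 TPM or more over all 62 libraries were fitted on log2(TPM + 1) with limma 3.58.1 (trend, R 4.3.3). The fit held 61 libraries of 12 groups, without the lane 4 library of NCAC at 4 weeks. The p-values were adjusted by Benjamini-Hochberg over 14494 genes. TPM hold no counts, so the size of the smallest steps between values gave an estimate of depth, for which 85.6 to 87.1% of values came out whole within 0.05, and no count test was run. Replicate numbers are shared between the groups. The correlations of deviations of same-numbered libraries were 0.00493 to 0.0673, so the numbers were not used as pairs. Members, lists and tests were chosen with earlier results of these data known. Since no gene was called, the text names the 8 genes with the lowest p in each direction, the 4 in each direction for the difference from CAC, and up to 4 members of a list, leaving out clones, gene models and pseudogenes. A few genes that this rule names are not reported here. Coordinates are those of GENCODE vM21, in which 45059 of the symbols were found. Date-like symbols (27) were left unnamed. Libraries left out in turn, another pseudocount, no filter, TMM scaling, marker scores, weights and the replicate block were the alternatives.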

Additional observations from a re-analysis of the deposited data

Results flagged for a closer look

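In 23 of 202 pairs of a gene examined here and a group of 4 or 5 libraries, a library lay far from the others of its group. Chance flags about 1 in 20 groups of unselected values, a rate that cannot be applied to these, since many of the genes were chosen after their values were seen and the genes share libraries. Replicate 1 of 4 weeks was the library in 8 of them. It held 101 TPM of Pmch (others of its group 1.21 to 4.44), 97.4 of Oxt (1.55 to 7.81), 173 of Avp (6.40 to 32.8), 26.1 of Hcrt (0 to 0.267) and 15.1 of Gal (1.96 to 3.55), which encode hypothalamic peptides. It also held 5.75 TPM of Shox2 (0.0804 to 0.962) and 34.1 of Prkcd (6.87 to 10.3), both high in thalamus, and 16.3 of Ahcy (1.80 to 2.02).

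Replicate 3 of 4 weeks was low for Gkn3 (3.66 TPM, others 8.15 to 8.61), Bmp4 (2.48, others 3.53 to 3.74), Ctss (134, others 151 to 153) and Sord (25.2, others 27.4 to 27.7). Replicate 4 of 4 weeks had 4.07 TPM of Ccl27b, which was at 0 in the others.

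At 2 weeks, replicate 4 stood apart for Arhgef15 (8.86 TPM, others 7.25 to 7.56), Syn1 (431, others 498 to 517) and Vtn (103, others 71.7 to 80.2). Replicate 3 stood apart for S100a9 (5.78 TPM, others 1.29 to 1.76), Shox2 (1.08, others 0.022 to 0.235) and Cyp51 (45.1, others 36.1 to 37.5). Replicate 2 did so for Flot1 (99.7 TPM, others 80.8 to 83.6) and mt-Cytb (17800, others 19600 to 20200). Per2 was high in replicate 1 (37.3 TPM, others 25.5 to 27.4) and Pmch in replicate 5 (3.71, others 0.679 to 1.51).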

How the results depend on the processing

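No alternative called a gene for either comparison, except that without a filter on level 3 of 25386 genes passed between the weeks in NCAC mice. These were the gene models Gm13645, Gm13618 and Gm13867, with at most 0.199 TPM in the 9 libraries. Leaving out a library at a time gave 0 to 0 calls for both comparisons, with 164 to 350 genes at an unadjusted p under 0.05 for the weeks and 220 to 963 for the difference from CAC. The count of genes at that p was 253 with a pseudocount of 0.1, 269 with TMM scaling, 290 with marker scores, 439 with both groups alone, 238 with the lane 4 library and 1174 with array weights, for which the lowest adjusted p was 0.135. With the replicate block it was 298, with 0 called, and the numbers did not pair the samples. Of the alternative values of 96 genes between the weeks, 23 moved by more than the spread between replicates and 1801 did not; of the medians of 44 lists, 29 moved and 807 did not. The precision is limited by 4 and 5 libraries and, below about 1 TPM, by reads.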

Other observations

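A few genes were split at the largest gap between their values over the libraries of the series. This rule parts any gene into a low and a high set. The genes were chosen after their values were seen. Rps26 had 0.647 to 0.97 TPM in 4 libraries, among them replicate 5 of 2 weeks, and 229 to 702 TPM in the other 58. Ahcy had 12.9 to 18.7 TPM in 3 libraries and 1.06 to 2.83 TPM in 59, Ccl27b was at 0 in 23 and at 0.66 to 9.26 TPM in 39, and Capn11 had 0.0807 to 1.02 TPM in 29 and 1.56 to 15.2 TPM in 33. Pccb had 24 to 29.3 TPM in 15 libraries and 42 to 67.1 TPM in 47, and Trbc2 had 8.56 to 12.7 TPM in 12 and 15.3 to 50.6 TPM in 50. The gap, taken on TPM + 0.1, was 215-fold for Rps26, 7.6-fold for Ccl27b and 4.43-fold for Ahcy. For Capn11, Pccb and Trbc2 it was 1.48-fold, 1.43-fold and 1.2-fold, so separate levels are less clear for them. Between NCAC mice at 4 and 2 weeks the log2 differences of Ccl27b, Capn11 and Rps26 were -2.25, 1.90 and 1.36, with groups that overlapped.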
